A study of Arabidopsis thaliana with 6 samples.

Results

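A group of 10 genes of Arabidopsis thaliana is described here, most of them known for transcripts that build up when leaves are kept dark or run short of sugar. The genes are ASN1 (AT3G47340), SEN1 (AT4G35770), DIN10 (AT5G20250), BT2 (AT3G48360), MIOX2 (AT2G19800), AT2G33830, AT2G20670, AT4G33467, DIN4 (AT3G13450) and DIN2 (AT3G60140). They were picked by locus from the 28309 loci with a probe on the array, in part because earlier results of these arrays showed some of them far lower in ore15-1D than in Col, so that their difference between those genotypes is given as a description with no test. RNA was measured in 3 genotypes with 2 one-colour arrays each: plants with the ore15-1D allele, plants with the ore15-2 allele, and Col, the wild type, which carries neither. Both alleles lie in ORE15 (AT1G31040), which encodes a PLATZ family protein, a plant-specific class of zinc-binding transcription factors. By the known use of these lines, ore15-1D is a dominant allele with raised ORE15 transcript and ore15-2 a loss-of-function allele, while how they were made and how many plants went into a sample are not given in the sources used here. All plants grew on soil for 13 days under 16 h of light and 8 h of dark, and the leaves sampled (leaf 3 or 4, 4 days after emergence) were taken 5 h after the lights came on.

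In leaves, sugar and light keep genes of this kind low. When carbon runs short, the SnRK1 kinase complex becomes active, and with bZIP transcription factors that act under it, it turns on a set of genes for salvaging carbon and nitrogen from amino acids, lipids and cell walls. The genes named DIN were isolated as dark-inducible transcripts of leaves, and ASN1, SEN1 and DIN10 are widely used readouts of SnRK1 activity. The set is also high in ageing leaves, where cell contents are broken down.

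The genotype labels were checked on ORE15, whose scaled intensity was 6722 and 6338 in ore15-1D, 12.1 and 2.88 in ore15-2, and 33.6 and 36.2 in Col. Scaled intensity is the processed spot signal with the 75th percentile of each array set to 1000, and differences are on its log2 scale with their standard error (SE) from limma over all 6 arrays. The transcript was 7.55 higher in ore15-1D than in Col (SE 0.67, adjusted p = 0.00544 by limma). In ore15-2 its difference from Col was -2.56 (SE 0.67) and did not pass (adjusted p = 0.125 by limma). Its probe was well above background on 1 of 2 ore15-2 arrays. Between 67.8% and 72.97% of spots per array read well above background and no spot was saturated. Slide 1 carried both ore15-1D arrays with Col replicate 1, and slide 2 both ore15-2 arrays with Col replicate 2, so each mutant can also be set against the 1 Col array of its own slide. Fitting slide as a fixed block gives that same difference, as does leaving out the Col array of the other slide. Below, these are the same check and do not count as separate ones. Precision is limited throughout by having 2 arrays per genotype. Probe positions are matches to transcripts of TAIR10, and whether they fall in coding sequence or a UTR was not analysed here. In whole leaves, fewer cells of a type and less RNA per cell cannot be told apart.

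The leaf label was checked on 5 leaf markers, all well above background on every array. Their summed scaled intensity was 827500 and 743000 in ore15-1D, 1442000 and 1600000 in ore15-2, and 1254000 and 1334000 in Col. By limma 4 of the 5 were called lower in ore15-1D, against 22.1% of all tested genes. Of 5 root markers 3 were well above background on all arrays, with sums of 504.1 and 821.5 in ore15-1D, 2357 and 1131 in ore15-2, and 2156 and 1317 in Col. In ore15-1D 4 of the 5 root markers were called lower. Among them NRT2:1 and IRT1 were well above background on neither ore15-1D array. The floral markers AP3 and AG, the meristem markers STM, WUS, CLV3 and KNAT1, and the seed marker CRU2 were not well above background on any array. In ore15-2 the floral marker PI was called higher (1.88, adjusted p = 0.0232 by limma) and SEP3 lower (-1.69, adjusted p = 0.0348), and SEP3 was called higher in ore15-1D (1.01, adjusted p = 0.0266). The 5 floral markers summed to 174.5 and 148.6 in ore15-1D, 177.2 and 136.5 in ore15-2, and 97 and 120.4 in Col. The 3 seed markers summed to 19.07 and 14.65 in ore15-1D, 42.7 and 48.85 in ore15-2, and 22.39 and 69.2 in Col. The part of the leaf, root and floral markers in the results below was not tested.

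In ore15-1D leaves, 9 of the 10 genes were below both Col arrays, and the remaining one, DIN2, was not well above background in any genotype. Over all tested genes 40.5% lay below and 39.9% above both Col arrays in ore15-1D, and nothing is read from the count of 9, because the genes were chosen with this comparison known. The differences from Col ran from 1.61-fold lower for DIN4 to 187-fold lower for ASN1, whose signal cleared background on only 1 array of ore15-1D. AT4G33467 was 88.4-fold lower with its ore15-1D level set at the dimmest signal still called well above background. In ore15-2 leaves, 8 of 9 lay below both Col arrays, MIOX2 among them, against 26% of all tested genes. AT2G33830, AT4G33467 and DIN10 fell by the limma test, where a lower call was made for 1.57% of all tested genes. The calls were fewer in many of the alternative settings given below. All 9 measured genes were well above background on both Col arrays, and 8 of them also on at least 1 mutant array. MIOX2 entered through Col alone, so its call is not read as a result.

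**Figure D1:**
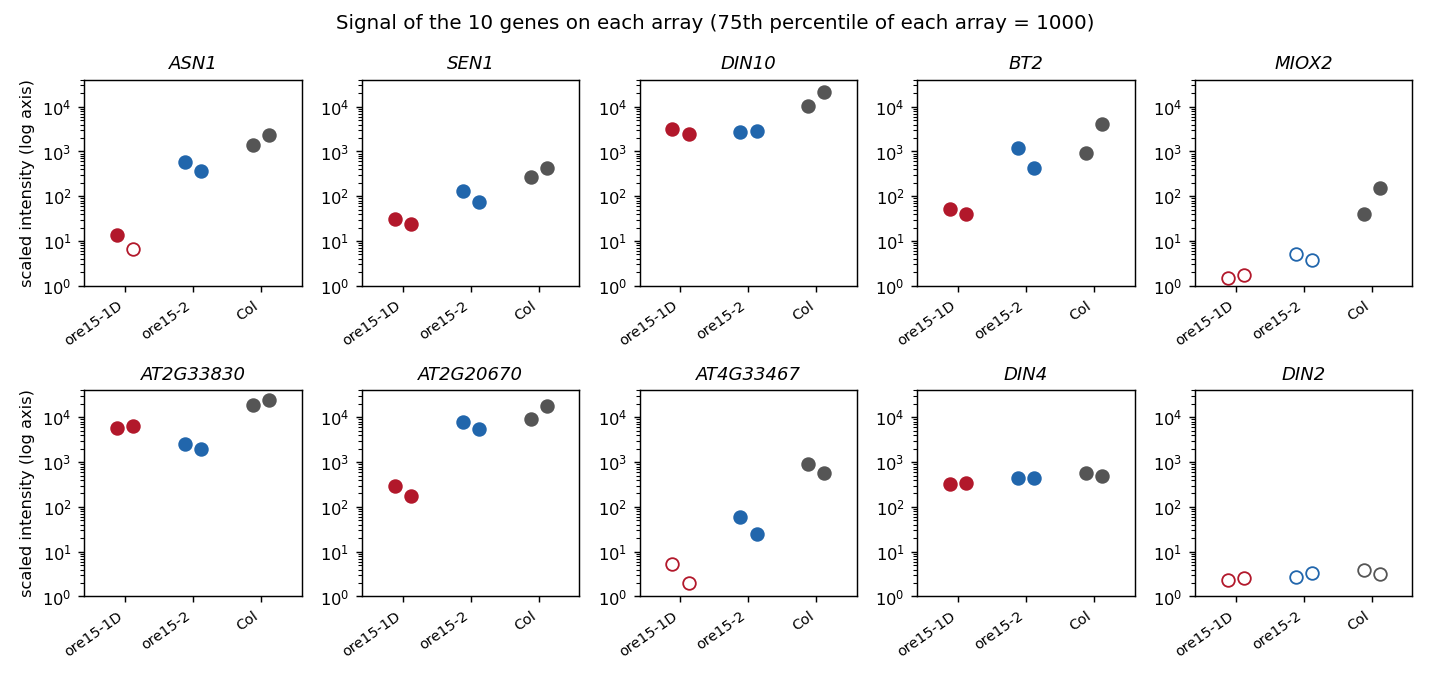
Each panel gives 1 of the 10 genes, with the scaled intensity on a log axis (75th percentile of each array set to 1000) for the 2 arrays of ore15-1D, of ore15-2 and of Col. Filled points are well above background and open points are not. The ore15-1D points lie below both Col points for the 9 measured genes, and all 6 DIN2 points are open.

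ASN1 encodes a glutamine-dependent asparagine synthetase, the enzyme that makes asparagine, a nitrogen-rich amino acid used for storage and transport when carbon is scarce. Its brightest probe matches chromosome 3 positions 17438164 to 17438223 of TAIR10. Scaled intensity was 13.6 and 6.68 in ore15-1D, 575 and 365 in ore15-2, and 1376 and 2305 in Col. The 3 genotypes did not overlap, with ore15-1D lowest, and only the first ore15-1D array was well above background. The difference between ore15-1D and Col was -7.55 (SE 0.46, with 1 ore15-1D array not well above background), and it was -7.18 against the Col array of the same slide. In ore15-2 the difference from Col was -1.96 (95% interval -3.17 to -0.75) which did not pass (adjusted p = 0.104 by limma). Between the mutants the log2 difference of ASN1 was -5.59 (ore15-1D minus ore15-2, SE 0.46). On the authors' deposited table the log2 values of ASN1 were 5.41 and 5.34 in ore15-1D, 7.66 and 7.26 in ore15-2, and 8.67 and 9.21 in Col.

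SEN1 encodes a senescence-associated protein first isolated as a dark-inducible transcript. Its brightest probe spans an intron, matching chromosome 4 positions 16945639 to 16945674 and 16945775 to 16945798. Scaled intensity was 30.9 and 24.2 in ore15-1D, 130 and 75.7 in ore15-2, and 264 and 432 in Col, again in the order ore15-1D, ore15-2, Col without overlap. The difference from Col was -3.63 in ore15-1D (SE 0.37). It was -1.76 in ore15-2 (95% interval -2.72 to -0.81), which missed the threshold (adjusted p = 0.0816 by limma).

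BT2 encodes a protein with BTB and TAZ domains that acts in sugar, nitrogen and hormone responses. Its brightest probe matches chromosome 3 positions 17908511 to 17908570. Scaled intensity was 52.9 and 41 in ore15-1D, 1175 and 424 in ore15-2, and 933 and 4071 in Col. Both ore15-1D arrays were far below the other 4, while the ore15-2 and Col arrays overlapped. The Col arrays of BT2 were 4.36-fold apart. The difference from Col was -5.39 in ore15-1D (SE 0.85), and -4.33 against the Col array of the same slide. In ore15-2 it was -1.46 (95% interval -3.67 to 0.74, adjusted p = 0.367 by limma), and -2.53 against the Col array of its slide. Against Col replicate 1 alone, the dimmer Col array, the ore15-2 difference was -0.40.

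AT2G20670 encodes a protein of the DUF506 family, whose function is unknown. Its probe matches chromosome 2 positions 8911994 to 8912053. Scaled intensity was 291 and 180 in ore15-1D, 7815 and 5637 in ore15-2, and 9294 and 18077 in Col. The ore15-1D arrays stood apart from both other genotypes. The difference from Col was -5.82 in ore15-1D (SE 0.42), a 56.6-fold lower mean, and -5.34 on the same slide. In ore15-2 it was -0.97 (95% interval -2.05 to 0.12, adjusted p = 0.262 by limma).

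AT4G33467 is annotated as an unknown protein. Its probe matches chromosome 4 positions 16101693 to 16101752. Scaled intensity was 5.26 and 1.96 in ore15-1D, 58.5 and 25.3 in ore15-2, and 892 and 564 in Col. Both ore15-1D arrays were not well above background, and the 3 genotypes did not overlap. With ore15-1D set at the floor, the dimmest signal still well above background on each of its arrays, the transcript was 88.4-fold lower than in Col. Some brighter probes, such as a DIN10 probe at 10.3 and 10.5 in ore15-1D, were not well above background either. The fold at the floor is therefore no strict bound. In ore15-2 it fell by 4.20 (SE 0.64, adjusted p = 0.0448 by limma), and by 3.87 against the Col array of its slide. With ore15-1D at that floor, AT4G33467 was 4.799-fold lower there than in ore15-2.

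MIOX2 encodes a myo-inositol oxygenase, which opens the myo-inositol ring to give glucuronate, a precursor of cell wall sugars. Its probe matches chromosome 2 positions 8531053 to 8531112. Scaled intensity was 1.52 and 1.70 in ore15-1D, 5.01 and 3.76 in ore15-2, and 40.8 and 152 in Col. The probe was well above background in Col alone, so the order of the mutants is unknown. With each mutant set at the floor of its arrays, MIOX2 was 9.82-fold lower in ore15-1D and 7.02-fold lower in ore15-2 than in Col. These are again no strict bounds. The Col arrays were 3.73-fold apart.

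DIN10 encodes a member of the raffinose synthase family. Its brightest probe matches chromosome 5 positions 6836544 to 6836603. Scaled intensity was 3165 and 2497 in ore15-1D, 2791 and 2890 in ore15-2, and 10208 and 20836 in Col. The mutants overlapped each other and both lay below Col. The difference from Col was -2.38 in ore15-1D (SE 0.36). In ore15-2 DIN10 fell by 2.36 (SE 0.36, adjusted p = 0.0441 by limma), and the mutants differed by -0.01 (ore15-1D minus ore15-2, 95% interval -0.95 to 0.92). That interval still allows a difference of nearly 1 log2 unit either way.

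AT2G33830 encodes a dormancy- and auxin-associated family protein, listed in RefSeq also as DRM2. Its brightest probe matches chromosome 2 positions 14309561 to 14309620. Scaled intensity was 5902 and 6484 in ore15-1D, 2509 and 1998 in ore15-2, and 18835 and 23962 in Col. The 3 genotypes did not overlap, and here ore15-2 was the lowest. The difference from Col was -1.78 in ore15-1D (SE 0.18). In ore15-2 AT2G33830 fell by 3.25 (SE 0.18, adjusted p = 0.0182 by limma). It was 1.47 higher in ore15-1D than in ore15-2 (SE 0.18), and no other of the 9 measured genes was higher in ore15-1D than in ore15-2 without overlap.

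DIN4 encodes a subunit of the branched-chain keto acid dehydrogenase, a mitochondrial enzyme in the breakdown of leucine, isoleucine and valine. Its probe spans an intron, at chromosome 3 positions 4382522 to 4382545 and 4382638 to 4382673. Scaled intensity was 333 and 337 in ore15-1D, 446 and 453 in ore15-2, and 584 and 500 in Col. The order was ore15-1D, ore15-2, Col without overlap, but the steps were small. The difference from Col was -0.69 in ore15-1D (SE 0.10) and -0.27 in ore15-2 (95% interval -0.53 to -0.00036, adjusted p = 0.224 by limma).

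DIN2 encodes a beta-glucosidase, a class of enzymes that release glucose from glycosides. Its brighter probe matches chromosome 3 positions 22220636 to 22220695. Scaled intensity was 2.34 and 2.55 in ore15-1D, 2.66 and 3.28 in ore15-2, and 3.83 and 3.13 in Col. Neither of its 2 probes was well above background on any array, so no order or fold is given. DIN11 (AT3G49620), another gene named for its induction in the dark, was likewise not well above background on any array.

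**Figure D2:**
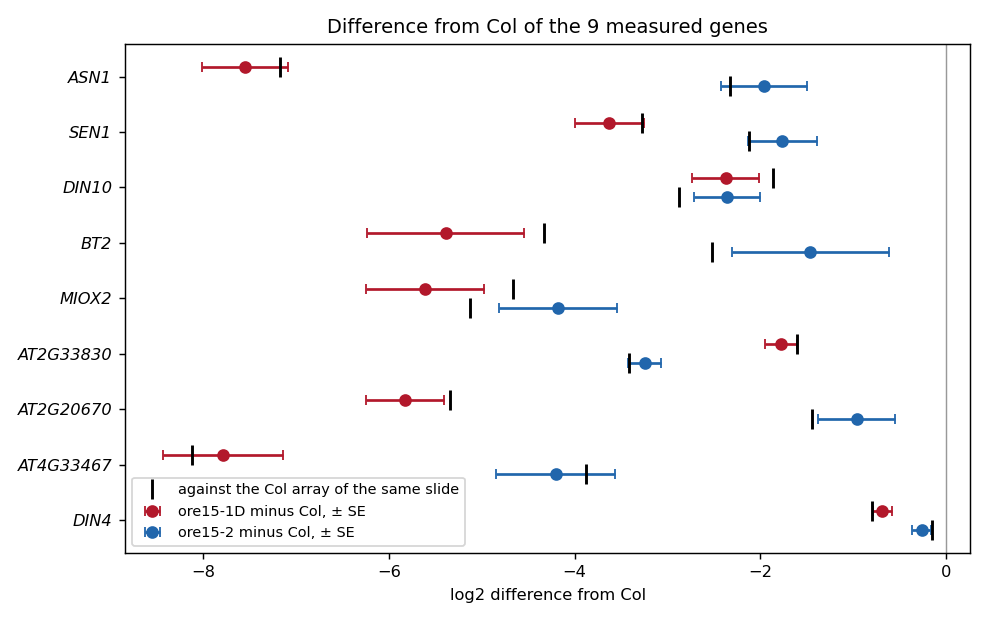
Points give the log2 difference from Col of the 9 measured genes, red for ore15-1D and blue for ore15-2, with bars of 1 SE of the limma fit (2 arrays per genotype). Vertical black ticks give the difference from the 1 Col array of the same slide. Every point and tick lies below 0, and AT2G33830 is the gene whose blue point lies clearly left of its red one. For MIOX2 in both mutants and AT4G33467 in ore15-1D the plotted values rest on signals not well above background.

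Set against each other, the genes can be sorted by whether the 2 arrays of each genotype overlapped, a description that was not tested. ASN1, SEN1, AT2G20670, AT4G33467 and DIN4 were lowest in ore15-1D and intermediate in ore15-2, where only AT4G33467 of these passed against Col by limma. BT2 was lowest in ore15-1D and its ore15-2 and Col arrays overlapped, though its ore15-2 difference (-1.46) was larger than that of AT2G20670 (-0.97). DIN10 was at a like level in both mutants, and AT2G33830 was lowest in ore15-2. The median difference from Col of the 9 measured genes was -5.39 in ore15-1D and -1.96 in ore15-2, beside -0.01 and 0.01 over all tested genes. With the genes that were not well above background set at the floor described above, it was -3.63 in ore15-1D and -1.96 in ore15-2. The size of the differences depended on the processing, for the brighter genes too. After normexp with quantile normalization AT4G33467 was -2.91 and MIOX2 -1.02 in ore15-1D, both smaller falls than those at the floor, with ASN1 at -3.84 and SEN1 at -1.59. The others there were BT2 at -3.55, AT2G20670 at -4.77, DIN10 at -2.18, AT2G33830 at -1.59 and DIN4 at -0.47. On the authors' deposited table the ore15-1D differences came to -4.31 for AT4G33467, -1.90 for MIOX2, -3.57 for ASN1 and -1.78 for SEN1. For the others they were -4.01 (BT2), -5.37 (AT2G20670), -1.05 (DIN10), -1.60 (AT2G33830) and -0.59 (DIN4). Both mutants were compared with the same 2 Col arrays, so their differences are not independent of each other.

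Of the 8 genes well above background on at least 1 mutant array, 3 fell by the limma test in ore15-2, and a lower call was made for 1.57% of all 20272 genes tested there (319 genes) and a higher one for 2.16%. At an unadjusted p below 0.05 there were 6 of these 8. With MIOX2 counted too, whose call is not read as a result, 4 of 9 passed, and 7 did at an unadjusted p below 0.05. Lying below both Col arrays was the case for 8 of 9 genes (MIOX2 among them), against 26% of all tested genes, while 26.4% of all tested genes lay above both. These counts are a description, since the 9 genes share the Col arrays with the comparison that chose them and earlier results of ore15-2 were known. The calls passed narrowly apart from AT2G33830, and of the 9 genes, when 1 array was left out 0 passed without either ore15-1D array, Col replicate 1 or ore15-2 replicate 2, 1 without ore15-2 replicate 1 and 3 without Col replicate 2 (5 to 8 at an unadjusted p below 0.05). None passed with slide as a fixed block, with 8 of 9 at an unadjusted p below 0.05.

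The 2 Col arrays differed for many of these genes. Col replicate 2 was over 1.5-fold above Col replicate 1 for ASN1 (1.68-fold), SEN1 (1.64-fold), DIN10 (2.04-fold), BT2 (4.36-fold), MIOX2 (3.73-fold) and AT2G20670 (1.95-fold). This held for 8.16% of all tested genes, and the median tested gene was 1.11-fold apart in either direction. AT2G33830 was 1.27-fold higher on Col replicate 2, and AT4G33467, DIN4 and DIN2 were lower there, at 0.633, 0.856 and 0.819 times Col replicate 1. The Col arrays lay on different slides, and slide and plant sample cannot be told apart within Col. Against the Col array of the same slide alone, each of the 9 was lower in both mutants.

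Other probes of the same genes gave the same direction. Together the 10 genes have 26 probes, of which 24 were well above background on at least 1 array, and all 24 had a lower mean in each mutant than in Col. On 7 of the 24 neither ore15-1D array was well above background (2 probes of ASN1, 2 of DIN10 and 1 each of SEN1, MIOX2 and AT4G33467), and on 3 neither ore15-2 array was (2 of DIN10 and that of MIOX2), so these give a direction but no measured size. The measured probes of SEN1 gave -3.63 and -3.24 in ore15-1D and -1.76 to -1.56 in ore15-2, and the 3 ASN1 probes -1.96 to -1.71 in ore15-2. For DIN10, 5 probes ranged from -2.45 to -1.79 in ore15-1D and 5 from -2.72 to -1.55 in ore15-2. The 2 BT2 probes gave -5.80 and -5.39 in ore15-1D and -1.37 and -1.46 in ore15-2. All 5 AT2G33830 probes were lower in ore15-2 (-3.36 to -3.14) than in ore15-1D (-1.81 to -1.71). Probes of 1 gene read the same RNA samples and are not replicates.

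**Figure D3:**
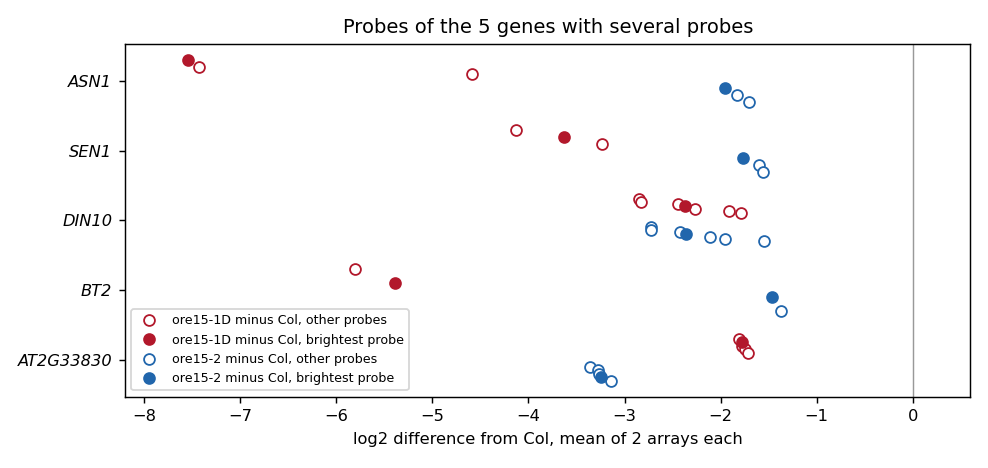
Each point is 1 probe of ASN1, SEN1, DIN10, BT2 or AT2G33830, with its log2 difference from Col in ore15-1D (red) and ore15-2 (blue), as means of 2 arrays per genotype. Filled points are the brightest probe of the gene, whose values are used above, and 7 probes in ore15-1D and 3 in ore15-2, counting MIOX2 and AT4G33467 (not drawn), were not well above background. All probes lie left of 0, with the blue points left of the red ones for AT2G33830, right of them for ASN1, SEN1 and BT2, and among them for DIN10.

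Further genes that low sugar is known to raise were also lower in ore15-1D. Of 19 such genes 18 were tested and 15 fell by limma, or 83.3%, against a call in either direction for 40.7% of all tested genes and a lower call for 22.1%. This group and those below were chosen with earlier results of these arrays known, so their counts and shares are a description. None of the 18 rose, also not at an unadjusted p below 0.05, where 16 were lower. The median of the 18 was -0.94 in ore15-1D and -0.73 within the slide. In ore15-2, 1 of 18 fell (5.56%, against 3.73% called over all genes), the median was -0.31, and at an unadjusted p below 0.05 there were 6 lower and 1 higher. The number that fell in ore15-1D was 2 without either ore15-1D array, 9 without Col replicate 2 or with slide as a fixed block, and 0 after normexp background correction with the 75th percentile. The median stayed at -1.02 and -0.91 without ore15-1D replicate 1 or 2 and at -0.73 in the other 3 settings.

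PPDK, whose enzyme turns pyruvate into phosphoenolpyruvate, had the largest fall of that group, with scaled intensity of 13.9 and 18.5 in ore15-1D, 225 and 424 in ore15-2, and 219 and 231 in Col. Its difference was -3.81 in ore15-1D (SE 0.33, adjusted p = 0.00531 by limma), and the ore15-2 arrays overlapped those of Col. BGAL4, a beta-galactosidase gene, fell by 2.95 (adjusted p = 0.00434 by limma), with 42.8 and 59.3 in ore15-1D, 170 and 197 in ore15-2, and 345 and 440 in Col. AT1G80440, a Kelch repeat F-box gene listed in RefSeq also as KFB20, fell by 2.56 in ore15-1D (adjusted p = 0.00844 by limma). AT5G22920, a RING zinc finger gene, fell by 2.05 there (adjusted p = 0.0114 by limma), and DIN9, which encodes a mannose-6-phosphate isomerase, by 1.26 (adjusted p = 0.0117 by limma).

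AT3G15450, an aluminium-induced family protein gene, was the gene of the group that fell in both mutants. Its scaled intensity was 30071 and 32469 in ore15-1D, 17913 and 11154 in ore15-2, and 53732 and 69889 in Col. It fell by 0.97 in ore15-1D (adjusted p = 0.0417 by limma) and by 2.12 in ore15-2 (adjusted p = 0.03 by limma). Like AT2G33830, it was lowest in ore15-2.

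Relatives of the 10 genes by family were tested for 13 of 20 loci, with 6 of the other 7 too dim and AT1G56220 without a usable Col spot. Over all 5 further groups 38 of 78 tested genes changed in ore15-1D (48.7%, against 40.7% over all tested genes), a count of 4 without either ore15-1D array and 19 without Col replicate 2, so the calls for single genes in ore15-1D lean on both arrays of that genotype. In ore15-1D 7 of the 13 relatives fell (53.8%, against 22.1% of all tested genes) and none rose by limma, with 7 lower and 1 higher at an unadjusted p below 0.05 and a median of -0.90. Paralogs of BT2 were among them: BT5 fell by 1.81 (adjusted p = 0.0127 by limma), BT3 by 1.58 (adjusted p = 0.00705) and BT1 by 1.41 (adjusted p = 0.0241). MIOX1, another myo-inositol oxygenase gene, fell by 1.598 (adjusted p = 0.0264 by limma), and SIP2, of the raffinose synthase family of DIN10, by 1.48 (adjusted p = 0.0219 by limma). In ore15-2 the one relative that fell was DYL1, a dormancy-associated gene of the family of AT2G33830. DYL1 had scaled intensity of 6068 and 5761 in ore15-1D, 4502 and 3060 in ore15-2, and 11663 and 11978 in Col. It fell by 1.00 in ore15-1D (adjusted p = 0.0189 by limma) and by 1.67 in ore15-2 (adjusted p = 0.0266 by limma), and like AT2G33830 it was lowest in ore15-2. The relative AT1G56220 had 19970 and 21851 in ore15-1D and 23119 on its 1 usable ore15-2 array.

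Genes of amino acid breakdown, the pathway to which DIN4 belongs, went both ways. Of 24 tested in ore15-1D 5 fell and 4 rose by limma (37.5% called, close to the 40.7% over all tested genes), with a median of 0.16, and in ore15-2 1 fell and 1 rose (8.33%, against 3.73% over all tested genes). ERD5, the proline dehydrogenase gene, had scaled intensity of 551 and 401 in ore15-1D, 151 and 181 in ore15-2, and 912 and 1714 in Col. It fell by 1.41 in ore15-1D (adjusted p = 0.0324 by limma) and by 2.92 in ore15-2 (adjusted p = 0.0276). AT1G21400, which encodes a thiamin diphosphate-binding protein, fell by 1.56 in ore15-1D (adjusted p = 0.00832 by limma), GDH2, a glutamate dehydrogenase gene, by 1.19 (adjusted p = 0.0255) and AT4G33150, of lysine breakdown, by 0.84 (adjusted p = 0.0056).

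MGL, which encodes methionine gamma-lyase, moved the other way in both mutants. Its scaled intensity was 2327 and 2364 in ore15-1D, 2074 and 2087 in ore15-2, and 980 and 913 in Col. It rose by 1.31 in ore15-1D (SE 0.08, adjusted p = 0.00372 by limma) and by 1.14 in ore15-2 (SE 0.08, adjusted p = 0.0182). ETFBETA, a subunit of the electron transfer flavoprotein that takes electrons from this breakdown, rose by 0.44 in ore15-1D (adjusted p = 0.0232 by limma).

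The group of SnRK1 subunits, bZIP factors and related genes gave 1 call among 12 tested genes in ore15-1D (8.33%, against 40.7% over all tested genes). Of the 17 listed, the 5 bZIP genes bZIP1, bZIP2, GBF6, bZIP44 and BZIP53 were not analysed here. KIN10, a catalytic subunit of SnRK1, fell by 0.44 in ore15-1D (SE 0.08, adjusted p = 0.0164 by limma). Its scaled intensity was 883 and 913 in ore15-1D, 1081 and 1009 in ore15-2, and 1228 and 1206 in Col. The other 11 did not pass in ore15-1D, and 0 of 12 passed by limma in ore15-2 (against 3.73% over all tested genes), where 1 was higher and 1 lower at an unadjusted p below 0.05. The arrays measure transcript, not kinase activity.

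Among 11 genes of the sugar response and starch metabolism, 3 rose and 3 fell in ore15-1D by limma, against 18.6% and 22.1% of all tested genes, and 0 of 11 passed in ore15-2, with 2 higher and 1 lower at an unadjusted p below 0.05. BAM5, a beta-amylase gene that sugar raises, had scaled intensity of 339 and 205 in ore15-1D, 62 and 36 in ore15-2, and 41 and 65 in Col, and rose by 2.35 in ore15-1D (adjusted p = 0.0151 by limma). GPT2, a glucose-6-phosphate translocator gene that sugar also raises, had 72.3 and 72.6 in ore15-1D, 385 and 142 in ore15-2, and 319 and 334 in Col, and fell by 2.17 in ore15-1D (adjusted p = 0.0239 by limma). After normexp background correction with the 75th percentile BAM5 differed by 0.11 and did not pass (adjusted p = 0.946 by limma). GBSS1, the granule-bound starch synthase gene, rose by 0.58 (adjusted p = 0.0357 by limma) and TPS5 by 0.55 (adjusted p = 0.0427), while ADG1 and APL1, subunits of the enzyme that makes ADP-glucose for starch, fell by 0.53 each (adjusted p = 0.0145 and 0.0142).

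**Figure D4:**
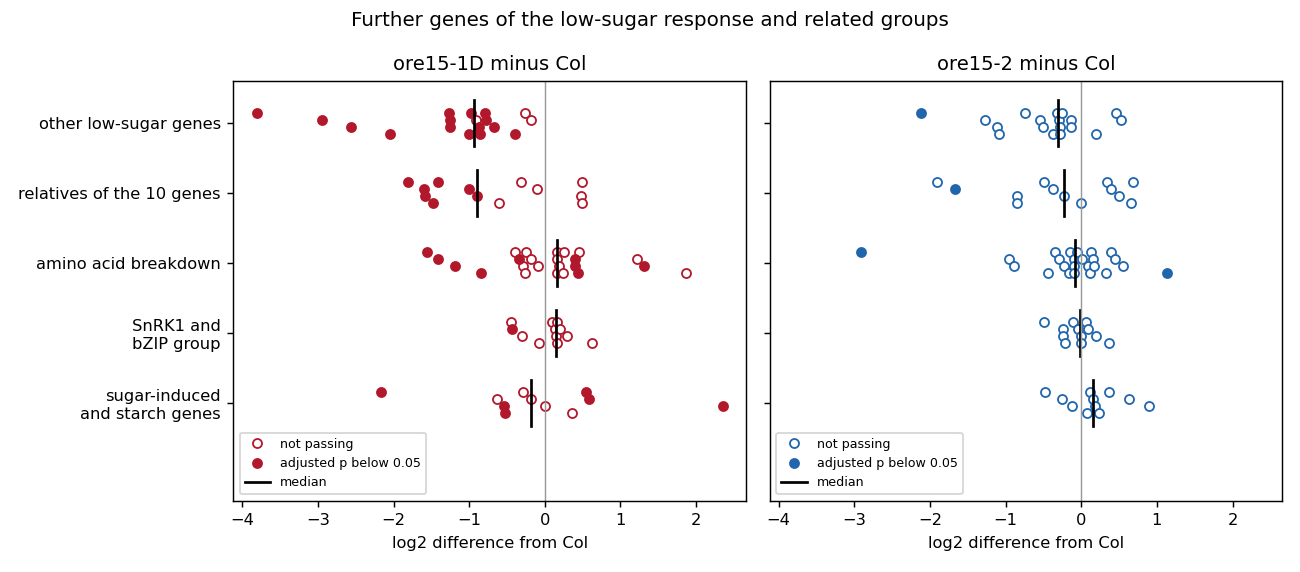
Each point is 1 tested gene of the 5 further groups, with its log2 difference from Col in ore15-1D (left) and ore15-2 (right). Filled points passed limma at an adjusted p below 0.05, open points did not, and black bars are group medians. In ore15-1D the low-sugar genes (median -0.94) and the relatives (median -0.90) lie mostly left of 0 and the other groups on both sides, while few points are filled in ore15-2.

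The 5 genes whose pair of differences (ore15-1D minus Col, ore15-2 minus Col) lay nearest to the median pair of the 9 genes were found by Euclidean distance over the 3 genotypes. They were PCC1 (AT3G22231, distance 0.51), AT1G52200 of the PLAC8 family (0.75), AT3G22235 (0.91), AT3G22240 (0.92) and AT4G32480 (1.01), in log2 units. The median pair (-5.39 and -1.96) took signals not well above background as measured. With those set at the floor it was -3.63 and -1.96, and genes nearest to that pair were not sought. AT1G52200 was itself dim in ore15-1D, at a scaled intensity of 7.38 and 2.25. AT4G32480 is a DUF506 gene like AT2G20670, with scaled intensity of 18.2 and 21.1 in ore15-1D, 381 and 213 in ore15-2, and 504 and 701 in Col. PCC1, known as a gene under the control of pathogens and the clock, had 69.9 and 468 in ore15-1D, 1139 and 7708 in ore15-2, and 6662 and 9958 in Col, a far wider spread between the arrays of a mutant. All 5 fell in ore15-1D by limma (PCC1 -5.49, SE 1.27, adjusted p = 0.0281) and none passed in ore15-2, where AT4G32480 was nearest to the threshold (-1.06, adjusted p = 0.162 by limma). They were chosen from these differences, so the calls describe them and support nothing.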

How the data were processed

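Total RNA of leaves was labelled and hybridised to 6 one-colour Agilent arrays. The scanner files deposited by the authors hold linear spot intensity from Feature Extraction 11.5, per the file headers, with the processed signal background-subtracted and 0 or 1 calls (other) of well above background. The authors also deposited log2 values per gene, with no scaling stated in the sources used here, which served as an alternative. Of 45220 spots per array, 1417 controls and outlier-marked spots were left out. Probes took their locus from the deposited element table (TAIR10), those with several loci were dropped, and the brightest probe stood for a gene. The log2 processed signal minus the 75th percentile of each array was tested with limma 3.58.1 in R 4.3.3 on all 6 arrays, for the 20278 loci well above background on both arrays of a genotype. Tests were two-sided, with Benjamini-Hochberg adjustment over all genes and a threshold of 0.05. P-values measure only the spread between these samples. Members, lists and tests were chosen with earlier results of these data known. Named are the 10 genes, ORE15, up to 6 genes per list with the largest called change in either mutant, and the 5 most alike. The pipeline was tested on simulated data. Alternatives were other scalings, background correction (normexp, offset 50, on median spot and local background signals), filters, probe means, slide and replicate blocks, fewer genotypes, a trend in the spread, the authors' table and leaving out each array. Symbols came from RefSeq names (TAIR10.1). Promoter and protein sequences were not analysed here.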

Additional observations from a re-analysis of the deposited data

Results flagged for a closer look

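Of the 78 tested genes of the 5 further groups 19 had the mutants on opposite sides of both Col arrays, as did 26.6% of all tested genes. The difference between the mutants passed limma in all 19. These genes were picked by where the arrays of both mutants lay, so the p-values between the mutants describe them and support nothing. The 6 of them that are named above follow, none of which passed against Col in ore15-2 alone. All 6 were lower in ore15-1D and higher in ore15-2 than Col. Others of the 19, not named, ran the reverse way, so no common direction is read from the 6. Values are log2 differences, ore15-1D minus ore15-2, then each mutant minus Col. DIN9 differed between the mutants by -1.79 (SE 0.19, adjusted p = 0.00384 by limma), at -1.26 in ore15-1D and 0.53 in ore15-2. AT1G21400 differed by -2.10 (SE 0.20, adjusted p = 0.00319), at -1.56 in ore15-1D and 0.55 in ore15-2. AT4G33150 differed by -1.01 (SE 0.08, adjusted p = 0.00276), at -0.84 in ore15-1D and 0.17 in ore15-2. APL1 differed by -0.69 (SE 0.09, adjusted p = 0.00527), at -0.53 in ore15-1D and 0.16 in ore15-2. ADG1 differed by -0.90 (SE 0.09, adjusted p = 0.0036), at -0.53 in ore15-1D and 0.36 in ore15-2. BT3, a paralog of BT2, differed by -2.26 (SE 0.18, adjusted p = 0.00281), at -1.58 in ore15-1D and 0.68 in ore15-2. After normexp background correction with the 75th percentile the ore15-2 differences of DIN9 (-0.45), AT4G33150 (-0.48) and BT3 (-0.79) were below 0. The mutants lay on different slides, and the part of the slide in these differences was not tested.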

How the results depend on the processing

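The 9 genes measured stayed below both Col arrays in ore15-1D under the alternatives that kept them, with 6 kept where probes had to be well above background on all 6 arrays and 10 with no filter. Their calls in ore15-2 (4 with MIOX2 counted, whose call is not read as a result) were fewer in many settings: 0 after normexp with the 75th percentile, with no filter, with only the genotypes compared or with the replicate block (6 at an unadjusted p below 0.05 by limma in each), 0 with slide as a fixed block (8 unadjusted), and 2 with the stricter filter. Without either ore15-1D array 0 passed (6 unadjusted), without Col replicate 1 0 (8), without ore15-2 replicate 2 0 (5), without ore15-2 replicate 1 1, and without Col replicate 2 3.

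Over all genes, the 8245 changed in ore15-1D became 0 after normexp with the 75th percentile (2243 at an unadjusted p below 0.05) and 3876 with slide as a fixed block, and ranged from 845 to 8660 with 1 array left out (845 and 1087 without an ore15-1D array, 3871 without Col replicate 2). The 38 genes of the 5 further groups became 0 (18 unadjusted), 19, and 4 to 39 in the same settings. The 756 changed in ore15-2 became 0 after normexp with the 75th percentile (725 unadjusted), 1199 after normexp with quantile normalization, 0 with no filter (4349), 1 with slide as a fixed block, 3 with the replicate block, 0 with only the genotypes compared (3374), 1159 with a trend in the spread, and 0 to 1349 with 1 array left out. The 4 genes of the further groups became 0, 9, 0, 0, 0, 0, 7 and 0 to 7 in those settings, with 9 to 26 at an unadjusted p below 0.05 where none passed, and 7 on the authors' deposited table. The 15 low-sugar genes that fell in ore15-1D became 0 after normexp with the 75th percentile, 9 with slide as a fixed block or without Col replicate 2, and 2 without either ore15-1D array. Under other scalings the share of higher calls in ore15-1D moved, from 3771 of 8245 to 4670 of 8354 after quantile normalization, 4739 of 8303 after normexp with quantile normalization and 4654 of 8029 on the authors' deposited table, and it was 2706 of 8071 with no filter. After normexp with the 75th percentile the median of all genes shifted to -0.25 in ore15-1D and -0.22 in ore15-2, and the differences in ore15-2 of DIN9 (-0.45), AT4G33150 (-0.48) and BT3 (-0.79) changed sign. The cause of these changes was not tested. Deviations of same-numbered arrays from their group means correlated at -0.01 (ore15-1D and ore15-2), -0.09 (ore15-1D and Col) and 0.13 (ore15-2 and Col), so the arrays share a number and no pairing is taken from it. With the replicate block 6537 genes and 33 of the further groups changed in ore15-1D.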
